A study of Mus musculus with 30 samples.

Results

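Early B lymphopoiesis was followed through 9 genes that mark the passage of a lymphoid progenitor to a pre-B cell, Ebf1, Pax5, Vpreb1, Igll1, Rag1, Rag2, Dntt, Il7r and Cd79a. They were taken by symbol as genes of this pathway, with earlier results of these data known. All 9 were found among the 13353 genes counted in whole BM, and 4 of them (Ebf1, Pax5, Il7r and Cd79a) among the 17059 genes counted in adipose tissue macrophages (ATMs). The other members were not analysed in ATMs. The study asked how obesity acts on blood formation from cells with an activating mutation of Shp2, and whether blocking IL-17A and stimulating the GLP-1 receptor change it. Lethally irradiated recipients (700 cGy plus 400 cGy) received CD45.2+ BM cells of Shp2E76K/+;LysM-Cre+ donors mixed with an equal number of CD45.1+ competitor BM cells of Boy/J mice. The recipients were 12 to 14 weeks old according to the labels, of both sexes, and either WT C57BL/6 mice (group WT) or leptin-deficient Ob/Ob mice. From 8 weeks after transplantation the Ob/Ob mice were given, for 30 days, vehicle (Vehicle), the GLP-1R agonist beinaglutide at 3 mg/kg s.c. (GLP-1R agonist), an antibody to IL-17A, injected i.p. 3 times a week at 200 μg for each mouse (anti-IL-17A), or both agents (Combo). WT mice have no treatment in the labels, so Vehicle and WT differ in leptin and in treatment. The competitor cells carry no mutation, and LysM-Cre acts mainly in myeloid cells, so the B-lineage RNA of a library may come from either donor and need not carry the activated allele. The labels give each library the same strain and do not give its donor. The paper reports a correction of its counts for batch effects and library preparation. The part of batch in the differences between groups was not tested.

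B cells are made in BM in ordered steps. The transcription factors Ebf1 and Pax5 commit a progenitor to the lineage, IL-7 sustains it through its receptor, the Rag1 and Rag2 recombinase cuts the immunoglobulin loci, and Dntt adds untemplated bases to the joined ends of the heavy chain. A successful heavy chain is tested in the pre-B receptor, in which Vpreb1 and Igll1 form the surrogate light chain and Cd79a, with Cd79b, carries the signal, and recombination then resumes on the light chain genes. Inflammation and obesity are known settings in which BM output shifts between lymphoid and myeloid cells.

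Each tissue had 15 libraries, 3 per group, with 31086184 to 39925495 counts on genes in BM and 24876074 to 45300263 in ATMs. Values are normalized counts (counts divided by the effective library size, at the mean size of the 15 libraries of the tissue) as mean ± SD (n = 3). A gene is said to have risen or fallen where its false discovery rate in edgeR was below 0.05 and its log2 fold change was beyond 1. The labels call the libraries of a group 3 biological replicates. The coefficient of variation between replicates beyond counting noise was 3.51% in BM and 32.5% in ATMs, and p-values measure only the spread between these libraries. The first BM WT library stood apart, with a chi-square per gene of 34.8 and 26.6 against the other WT libraries, where the other 13 pairs of BM replicates had 2.02 to 4.21. Without it the log2 differences of the 9 genes in Vehicle vs WT ran from -0.83 for Il7r to -4.41 for Rag2, and 8 of the 9 passed in place of 7, Pax5 being added. The number of members that passed against WT was unchanged without it for each treated group. In bulk RNA, fewer cells of a type and less RNA per cell cannot be told apart. The BM libraries held the granulocyte genes of whole marrow, with Mpo between 58632 and 195405 normalized counts. Sex-linked RNA differed between groups. In BM, Xist ranged from 0 to 5.62 normalized counts in WT and GLP-1R agonist, from 88.3 to 113 in anti-IL-17A, and from 3528 to 6712 in Combo and Vehicle. Vehicle also held 695 to 743 normalized counts of the Y-linked gene Ddx3y, against 1489 to 1681 in WT and 147 to 177 in Combo. In ATMs, Xist averaged 1250 normalized counts in Vehicle and 1129 in Combo, against 0 to 16.3 in the other groups. Ddx3y averaged 433 in Vehicle and 286 in Combo, against 2914 to 5448 in the other groups. In both tissues, the sex of the contributing cells and the group cannot be told apart in any comparison of Vehicle or Combo with the other groups.

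In BM, all 9 genes were highest in WT. In vehicle-treated Ob/Ob recipients the 3 recombination genes were most reduced, with Rag2 22.4-fold, Rag1 12.3-fold and Dntt 10.9-fold lower, while the other 6 were 1.9-fold to 3.34-fold lower. With anti-IL-17A, Rag1, Rag2 and Dntt rose above Vehicle by 3.41-fold to 6.16-fold, and no other member passed the threshold. With GLP-1R agonist, Ebf1, Pax5, Vpreb1, Igll1, Rag1 and Cd79a fell below Vehicle. In Combo, Cd79a was at 1.04-fold its level with GLP-1R agonist, and Il7r alone of the 9 was lower than in both single-agent groups.

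**Figure D1:**
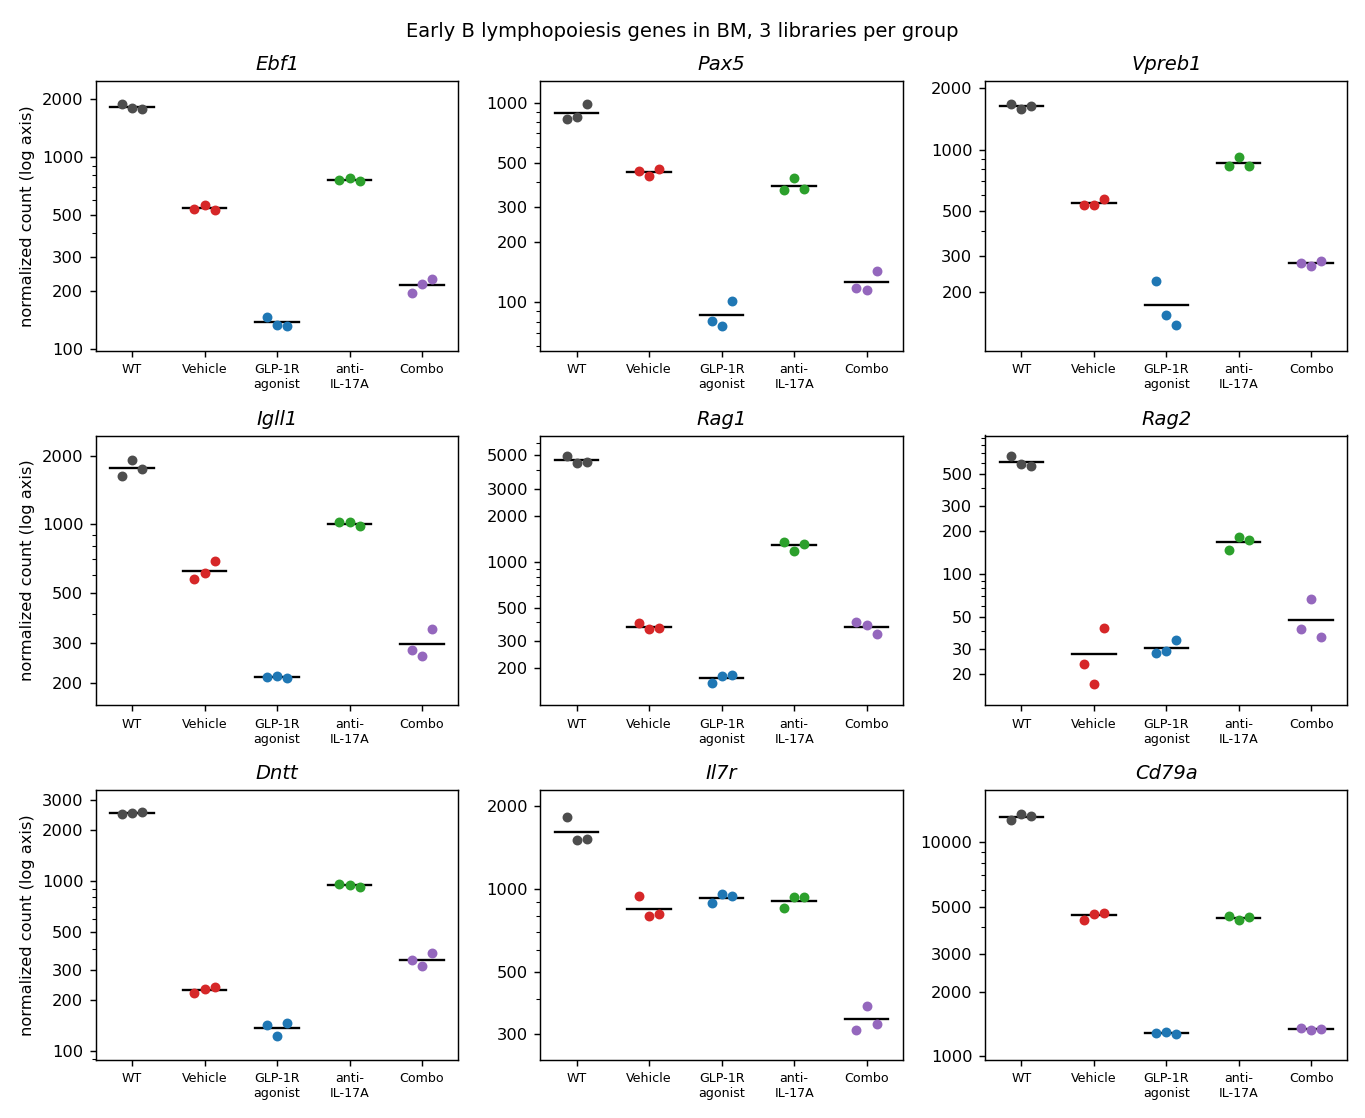
Normalized counts of the 9 genes in the BM libraries (vertical log axis, a separate range for each gene) for WT and the 4 groups of Ob/Ob recipients. Points are libraries and bars are group means (n = 3). WT is highest in every panel, anti-IL-17A is above Vehicle for Rag1, Rag2 and Dntt, and Il7r has a low Combo group beside 3 Ob/Ob groups at similar levels.

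Because most of these genes moved together, the start of each gene was read for letters bound by early B cell factors. Of the 10 start-site windows of the 9 genes (250 bases before to 50 after the start, RefSeq, GRCm38.p6; Ebf1 has 2), 4 held the E-box CAGGTG on either strand, which E2A binds, against 20.2% of 32851 mouse windows. The related E-box CAGCTG was in 2 of the 10 (16.3% of all), and the core CCCNNGGG of the EBF motif in 1 of the 10 (13.7% of all). The motifs did not overlap each other in these windows. The 4 windows with CAGGTG are shown, 5′ to 3′ on the strand of the gene, with the motifs in capitals (CACCTG is CAGGTG on the other strand).
Vpreb1 (chr16:16869206-16869505, minus strand): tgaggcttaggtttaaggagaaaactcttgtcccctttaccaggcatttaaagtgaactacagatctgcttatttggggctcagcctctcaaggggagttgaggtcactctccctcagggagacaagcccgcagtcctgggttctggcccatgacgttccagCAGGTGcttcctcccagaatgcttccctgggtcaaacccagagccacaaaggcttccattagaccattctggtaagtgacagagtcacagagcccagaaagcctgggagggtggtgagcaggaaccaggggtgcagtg
Igll1 (chr16:16863936-16864235, minus strand): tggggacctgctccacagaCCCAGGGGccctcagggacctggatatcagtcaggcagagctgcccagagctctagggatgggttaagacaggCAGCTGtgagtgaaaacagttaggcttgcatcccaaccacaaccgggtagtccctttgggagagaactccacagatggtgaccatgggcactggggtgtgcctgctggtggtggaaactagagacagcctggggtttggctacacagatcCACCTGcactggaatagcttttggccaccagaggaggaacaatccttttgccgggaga
Rag1 (chr2:101649483-101649782, minus strand): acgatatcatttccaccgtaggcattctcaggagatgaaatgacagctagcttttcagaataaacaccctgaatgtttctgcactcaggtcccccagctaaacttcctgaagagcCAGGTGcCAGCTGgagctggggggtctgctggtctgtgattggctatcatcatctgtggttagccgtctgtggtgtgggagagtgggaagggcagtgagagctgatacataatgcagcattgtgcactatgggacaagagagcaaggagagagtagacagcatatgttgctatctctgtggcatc
Cd79a (chr7:24897247-24897546, plus strand): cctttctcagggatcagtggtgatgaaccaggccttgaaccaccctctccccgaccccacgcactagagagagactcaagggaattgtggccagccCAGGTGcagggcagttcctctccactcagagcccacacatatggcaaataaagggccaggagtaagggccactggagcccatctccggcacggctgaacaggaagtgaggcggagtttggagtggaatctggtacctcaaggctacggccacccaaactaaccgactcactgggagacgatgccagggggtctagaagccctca
Igll1 was the only member with all 3 motifs, with CAGGTG 8 bases before the start, and Rag1 held CAGGTG and CAGCTG side by side. The windows of Ebf1, Pax5, Rag2, Dntt and Il7r held none of these letters. A match is a description of the sequence and no measure of binding.

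Ebf1 (chr11:44617317-45008091, GRCm38, plus strand), the factor that starts the B-lineage program, had normalized counts of 1885, 1796 and 1770 in WT and of 536, 565 and 529 in Vehicle. It fell by 1.74 ± 0.06 (SE) on the log2 scale in Vehicle vs WT (edgeR adjusted p = 2.64e-26). GLP-1R agonist held 148, 133 and 132, anti-IL-17A 755, 779 and 748, and Combo 197, 218 and 233. The 5 groups did not overlap, in the order WT, anti-IL-17A, Vehicle, Combo and GLP-1R agonist. Against Vehicle, Ebf1 fell by 1.98 ± 0.08 with GLP-1R agonist (edgeR adjusted p = 1.26e-23) and by 1.33 ± 0.08 in Combo (edgeR adjusted p = 9.49e-19). The difference of 0.48 ± 0.06 with anti-IL-17A passed the false discovery rate and not the fold limit.

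Pax5 (chr4:44524757-44710487, minus strand), which holds cells in the B lineage and represses other fates, had 832, 844 and 981 normalized counts in WT and 452, 430 and 463 in Vehicle. Its log2 difference of -0.98 ± 0.08 between Vehicle and WT (edgeR adjusted p = 1.81e-13) lay just inside the fold limit, and passed it without the first (-1.02) or the second (-1.003) WT library. The groups did not overlap. GLP-1R agonist held 80.6, 76.3 and 101, anti-IL-17A 364, 419 and 367, and Combo 118, 115 and 144. Of the 9 genes, Pax5 had the largest fall below Vehicle in both GLP-1R agonist (2.39 ± 0.11 on the log2 scale, 5.23-fold) and Combo (1.83 ± 0.11, 3.56-fold), and with anti-IL-17A it was 1.17-fold lower, under the fold limit. Genes on either strand that share 8.6% of its exon bases could not be separated from it, since strand was not used in counting.

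Vpreb1 and Igll1 (chr16:16868403-16870843 and chr16:16860671-16863985, both on the minus strand) lie next to each other and encode the partners of the surrogate light chain. Vpreb1 had 1667, 1591 and 1637 normalized counts in WT and 536, 533 and 575 in Vehicle, and fell by 1.58 ± 0.08 on the log2 scale (edgeR adjusted p = 6.96e-18). Igll1 had 1632, 1919 and 1747 in WT and 575, 612 and 687 in Vehicle, and fell by 1.50 ± 0.07 (edgeR adjusted p = 9.75e-21). Both pairs of groups were well apart, and the 2 genes fell to 33.6% and 35.4% of WT. With GLP-1R agonist Vpreb1 held 226, 154 and 137 and Igll1 211, 214 and 209, and both fell below Vehicle (log2 differences of -1.66 ± 0.10 and -1.56 ± 0.09). With anti-IL-17A Vpreb1 held 832, 921 and 833 and Igll1 1024, 1019 and 981. These were 1.58-fold and 1.61-fold above Vehicle, under the fold limit, with no overlap between the groups. In Combo Vpreb1 held 277, 269 and 285 and Igll1 280, 263 and 346, and Igll1 passed the limit (-1.07 ± 0.09) where Vpreb1 came just short of it (-0.98 ± 0.10). Without the second Combo library Igll1 did not pass (-0.9955), and without the second Vehicle or the third Combo library Vpreb1 did (-1.004 for each), as it did with at least 10 counts in every library or with the compared libraries alone (-1.002 for each), so that 6 of the 9 genes then fell. The transcripts of Vpreb1 and its copy Vpreb2 were identical at 97.4% of 759 aligned bases, so the split of reads between them is uncertain. The gene Top3b shares 9.01% of the exon bases of Vpreb1. Vpreb2 was lower as well, with a log2 difference of -3.31 ± 0.22 in Vehicle vs WT.

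Rag1 (chr2:101638282-101649501, minus strand), the catalytic part of the recombinase, had 4924, 4419 and 4503 normalized counts in WT and 398, 362 and 367 in Vehicle. It fell by 3.62 ± 0.06 on the log2 scale (edgeR adjusted p = 6.11e-36). GLP-1R agonist held 160, 179 and 181, anti-IL-17A 1357, 1179 and 1312, and Combo 404, 383 and 336. Anti-IL-17A lay above all other Ob/Ob libraries, and Vehicle and Combo overlapped. Against Vehicle, Rag1 rose by 1.77 ± 0.07 with anti-IL-17A (edgeR adjusted p = 3.23e-24), to 27.8% of WT, and fell by 1.12 ± 0.09 with GLP-1R agonist (edgeR adjusted p = 7.01e-14). In Combo the log2 difference from Vehicle was 0.00 ± 0.08 with an interval from -0.16 to 0.15.

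Rag2 (chr2:101624718-101632529, plus strand), the second part of the recombinase, faces Rag1 at the same locus. It had 675, 588 and 573 normalized counts in WT and 23.8, 17.2 and 42.0 in Vehicle, from 16 to 35 raw counts per library. It fell by 4.49 ± 0.18 on the log2 scale (edgeR adjusted p = 2.3e-22), the largest fall of the 9 genes. Anti-IL-17A held 148, 182 and 174, GLP-1R agonist 28.1, 28.9 and 34.7, and Combo 41.2, 66.7 and 36.5. The rise with anti-IL-17A over Vehicle was 2.62 ± 0.21 (edgeR adjusted p = 1.13e-13), to 27.4% of WT. GLP-1R agonist overlapped Vehicle, and its log2 difference of 0.16 had an interval from -0.40 to 0.72. Combo overlapped Vehicle too, at 1.76-fold its mean, and did not pass the fold limit, but passed it without the third Vehicle library (1.19). The gene B230118H07Rik shares 6.07% of the exon bases of Rag2 and 1.21% of those of Rag1.

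Dntt (chr19:41029275-41059525, plus strand), the terminal transferase of progenitors that rearrange the heavy chain, had 2462, 2491 and 2550 normalized counts in WT and 219, 231 and 239 in Vehicle. It fell by 3.45 ± 0.07 on the log2 scale (edgeR adjusted p = 2.79e-35). The 5 groups did not overlap. GLP-1R agonist held 142, 122 and 146, anti-IL-17A 952, 951 and 918, and Combo 342, 316 and 377. Against Vehicle Dntt rose by 2.03 ± 0.07 with anti-IL-17A (edgeR adjusted p = 4.53e-26), to 37.6% of WT. In Combo it was 1.5-fold higher than in Vehicle and with GLP-1R agonist 1.68-fold lower, both under the fold limit.

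Il7r (chr15:9505788-9530176, minus strand), the IL-7 receptor chain that progenitors of B cells share with T cells and innate lymphoid cells, had 1818, 1509 and 1519 normalized counts in WT and 941, 796 and 812 in Vehicle. The log2 difference of -0.93 ± 0.07 (edgeR adjusted p = 3.09e-12) was inside the fold limit, and passed it without the first Vehicle library (-1.01). GLP-1R agonist held 892, 959 and 944, anti-IL-17A 854, 936 and 934, and Combo 310, 379 and 324. The libraries of Vehicle and of each single agent overlapped, and Combo lay below all of them. Neither single agent differed from Vehicle by more than the spread between libraries, with intervals of the log2 difference from -0.02 to 0.28 for GLP-1R agonist and from -0.05 to 0.25 for anti-IL-17A. In Combo Il7r fell by 1.33 ± 0.09 (edgeR adjusted p = 6.63e-14), to 20.9% of WT. Of 15 T-cell genes tested, 8 were also lower in Combo vs Vehicle, and their summed level was 2323 to 2465 in Combo against 4329 to 4487 in Vehicle, 5900 to 6105 in GLP-1R agonist and 3823 to 4037 in anti-IL-17A. The defining gene Cd3e was not at 0, with 124 to 148 normalized counts in Combo and 234 to 299 in Vehicle. Of 12 genes of NK and innate lymphoid cells, 7 were lower in Combo vs Vehicle and none was higher. Their summed level was 6318 to 6454 in Combo and 10391 to 10545 in Vehicle. It was 5322 to 5444 in GLP-1R agonist and 6682 to 6790 in anti-IL-17A. The part of T cells and of NK and innate lymphoid cells in the Il7r difference was not tested.

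Cd79a (chr7:24897381-24902197, plus strand), the signal chain that B cells keep from the pre-B stage to maturity, had 12657, 13561 and 13291 normalized counts in WT and 4345, 4625 and 4685 in Vehicle. It fell by 1.53 ± 0.03 on the log2 scale (edgeR adjusted p = 6.33e-35). GLP-1R agonist held 1291, 1298 and 1276, anti-IL-17A 4510, 4331 and 4472, and Combo 1360, 1330 and 1348. Vehicle overlapped anti-IL-17A, with an interval of the log2 difference from -0.10 to 0.03, whereas GLP-1R agonist and Combo formed a low pair. Against Vehicle, Cd79a fell by 1.82 ± 0.03 with GLP-1R agonist (edgeR adjusted p = 1.18e-35) and by 1.76 ± 0.04 in Combo (edgeR adjusted p = 6.08e-35).

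**Figure D2:**
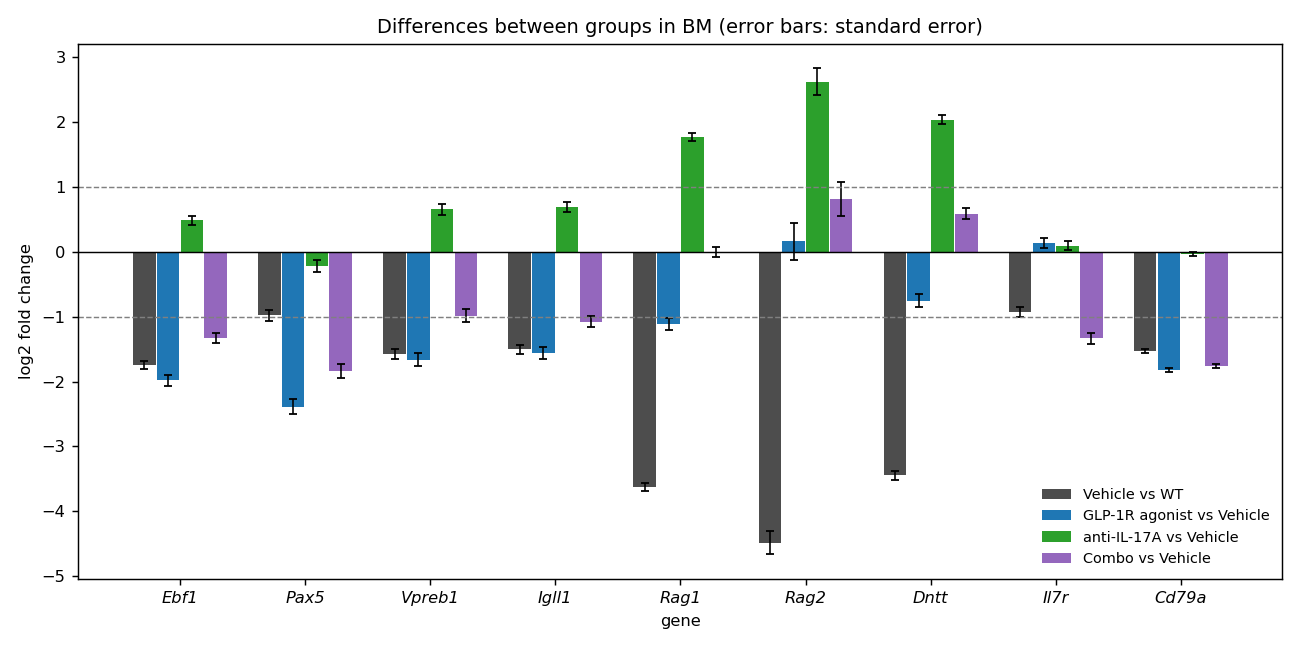
Log2 fold changes in BM (vertical axis) of the 9 genes for Vehicle vs WT and for each treated group vs Vehicle. Bars are estimates of edgeR, error bars are standard errors, and dashed lines mark the fold limit of 1 in each direction. The Vehicle bars of Rag1, Rag2 and Dntt lie between -3.45 and -4.49, and the anti-IL-17A bars of the same genes between 1.77 and 2.62.

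In Vehicle vs WT, 7 of the 9 genes fell and none rose, where 10% of all 13353 genes fell. The median log2 difference was -1.58 over the 9 and -0.02 over all genes. Per kilobase of exon, Cd79a led in both groups (9039 normalized counts per kb in WT and 3124 in Vehicle). In WT the level per kb of Dntt (1091) was the third and that of Rag1 (698) the fifth of the 9. In Vehicle the level per kb of Dntt (100) was under that of Il7r (182), and that of Rag1 (56.9) was close to those of Ebf1 (55.7) and Pax5 (50.6).

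Other genes of the pathway were counted by their roles. Of 13 other genes of recombination and end joining, 3 fell, 1 rose and 9 did not pass. Lig4, the ligase, fell by 1.53 ± 0.10 on the log2 scale, Xrcc5 (Ku80) fell by 1.11 ± 0.08, and Dclre1c (Artemis, which opens the hairpin ends) rose by 1.09 ± 0.06. Among 21 transcription factors of the B lineage 10 fell and 1 rose. Irf4 fell by 2.45 ± 0.06, Id3 fell by 2.38 ± 0.13, and Id2 rose by 2.09 ± 0.04. Of 16 genes of pre-B receptor signalling 7 fell and none rose. Among 16 genes of IL-7 and niche signals 3 fell and 4 rose. The niche chemokine Cxcl12 fell by 1.75 ± 0.05 and the stem cell factor gene Kitl by 1.51 ± 0.20, while Jak3, the kinase that pairs with the IL-7 receptor, rose by 2.20 ± 0.05 and the cytokine inhibitor Socs1 rose by 2.03 ± 0.09.

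Markers of B cells were also counted. Of 13 pan-B genes 11 fell (median log2 difference -1.78), and their summed level was 62150 to 63266 in WT and 22137 to 23109 in Vehicle. Of 15 markers of pro-B and pre-B stages, 5 fell, 1 rose and 9 did not pass, and Arpp21 and Myl4 fell by 3.47 ± 0.35 and 3.42 ± 0.08. Among 16 genes of mature B and plasma cells 12 fell and 1 rose. Of 15 genes of multipotent and lymphoid progenitors 3 rose and none fell. None of 15 T-cell genes and none of 13 proliferation genes passed. The part of cell composition in the members' differences was not tested.

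In anti-IL-17A vs Vehicle, 3 of the 9 genes rose, where 7.65% of all genes rose, and none fell. The median log2 difference was 0.66 over the 9 and 0.01 over all genes. Of the 13 other genes of recombination and end joining none rose and 1 fell. Of 16 pre-B receptor genes 3 rose, Vpreb2 (2.42 ± 0.24 on the log2 scale), Vpreb3 and Bank1. Among 15 markers of pro-B and pre-B stages Arpp21 (2.23) and Myl4 (1.51) rose and Cd38 fell by 2.38. Of 13 pan-B genes 2 rose, and their summed level of 23936 to 24338 was close to that of Vehicle. Against WT, 6 of the 9 genes were still lower with anti-IL-17A, where 4.02% of all genes were lower, and Vpreb1, Igll1 and Il7r were within the fold limit.

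In GLP-1R agonist vs Vehicle, 6 of the 9 genes fell, where 9.08% of all genes fell, and none rose. The median log2 difference was -1.56 over the 9 and 0.01 over all genes. Of 13 pan-B genes 9 fell, with a summed level of 10036 to 10280. Among 21 transcription factors of the B lineage 4 fell, none rose and 17 did not pass (median log2 difference -0.33). Bach2 and Spib, which were among those that fell and were named after their values were seen, fell by 2.45 and 1.94. Of 16 IL-7 and niche genes 3 fell and 3 rose, and Cxcl12 rose by 2.28 on the log2 scale. Among 7 erythroid genes 5 rose, and their summed level was 91541 to 93139 against 32874 to 33632 in Vehicle. The neutrophil genes went the other way, with a summed level of 3068702 to 3097019 against 4658554 to 4704826 in Vehicle. The part of these other cell types in the lower B-lineage counts was not tested. Against WT, 8 of the 9 genes were lower, where 8.62% of all genes were, and Il7r stayed within the fold limit. Compared with anti-IL-17A, 8 of the 9 were lower with GLP-1R agonist (3.41% of all genes), from 3.44-fold for Cd79a to 7.39-fold for Rag1, and Il7r differed by 0.04 on the log2 scale with an interval from -0.11 to 0.18.

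In Combo vs Vehicle, 5 of the 9 genes fell, where 11.1% of all genes fell, and none rose. These were Ebf1, Pax5, Igll1, Il7r and Cd79a, and the median log2 difference was -1.07 over the 9 and 0.02 over all genes. All 9 were lower than in WT, where 9.93% of all genes were, and all 9 lower than with anti-IL-17A, where 4.63% of all genes were. Compared with GLP-1R agonist, Rag1 rose by 1.11 ± 0.09 and Dntt by 1.34 ± 0.09 on the log2 scale, 2 of the 9 genes where 4.59% of all genes rose, and Il7r fell by 1.46 ± 0.09, where 8.57% of all genes fell. Cd79a was at 1.04-fold the level of GLP-1R agonist (interval of the log2 difference from -0.01 to 0.14). The neutrophil genes rose in the same libraries, 9 of 15 against Vehicle, with a summed level of 5314055 to 5363995 against 4658554 to 4704826, and the part of this in the B-lineage values was not tested.

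Whether the effect of Combo equalled the effects of the single agents added up on the log2 scale was tested in the same fit. Of the 9 genes 2 were lower than that sum beyond the fold limit, where 11.5% of all genes were, and none was higher beyond it. Il7r lay 1.56 ± 0.12 below the sum (edgeR adjusted p = 1.08e-12), as both single agents had left it near Vehicle. Rag2 lay 1.97 ± 0.34 below it (edgeR adjusted p = 4.3e-06). Pax5 (0.78), Rag1 (-0.66) and Dntt (-0.70) departed from the sum within the fold limit. They passed the false discovery rate (edgeR adjusted p = 6.7e-05, 4.35e-06 and 2.06e-06). Ebf1, Vpreb1, Igll1 and Cd79a had departures from -0.20 to 0.16 that did not pass the false discovery rate. Across the 5 groups of BM, all 9 genes differed at a false discovery rate below 0.05, as did 95.1% of all genes.

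To set the members beside the amount of B-lineage RNA, counts were also taken per 100 Cd79a counts of the same library. With 3 libraries against 3, the exact permutation test (2-sided) cannot go below p = 0.1. Vpreb1 and Igll1 showed no detectable difference in ratio between WT and Vehicle. Vpreb1 had 13.2, 11.7 and 12.3 counts per 100 Cd79a counts in WT and 12.3, 11.5 and 12.3 in Vehicle, and Igll1 12.9, 14.2 and 13.1 against 13.2, 13.2 and 14.7. The groups overlapped for both genes (exact p = 0.5 each). With anti-IL-17A Vpreb1 had 18.5, 21.3 and 18.6 and Igll1 22.7, 23.5 and 21.9, and in Combo they had 20.3, 20.2 and 21.1 and 20.6, 19.7 and 25.7. Every one of these libraries lay above those of Vehicle and of WT. With GLP-1R agonist Vpreb1 (17.5, 11.9 and 10.7) overlapped Vehicle, and Igll1 (16.3, 16.5 and 16.4) lay above it.

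The ratio of the recombination genes to Cd79a was lower in Vehicle. Rag1 had 38.9, 32.6 and 33.9 counts per 100 Cd79a counts in WT and 9.16, 7.82 and 7.84 in Vehicle. Dntt had 19.5, 18.4 and 19.2 against 5.04, 4.99 and 5.10, and Rag2 had 5.34, 4.34 and 4.31 against 0.548, 0.371 and 0.896. No library of Vehicle reached one of WT in any of the 3 genes (exact p = 0.1 each, the smallest possible). With anti-IL-17A the ratios were 30.1, 27.2 and 29.3 for Rag1, 21.1, 22 and 20.5 for Dntt and 3.29, 4.19 and 3.89 for Rag2. Combo, in which Cd79a itself was low, had 29.7, 28.8 and 24.9 for Rag1, 25.1, 23.7 and 27.9 for Dntt and 3.03, 5.02 and 2.71 for Rag2. All these libraries lay above those of Vehicle. GLP-1R agonist was between, with means of 13.5 for Rag1, 10.6 for Dntt and 2.38 for Rag2, each above Vehicle without overlap.

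Il7r showed another order. Its ratio was 14.4, 11.1 and 11.4 counts per 100 Cd79a counts in WT and 21.7, 17.2 and 17.3 in Vehicle, and it was 69.1, 73.9 and 74.0 with GLP-1R agonist. In the latter group Il7r was near its Vehicle level while Cd79a was 3.53-fold lower. Anti-IL-17A and Combo had means of 20.5 ± 1.39 and 25.1 ± 3.01. Ebf1 and Pax5 had narrower ranges, with group means from 10.7 to 17.2 and from 6.68 to 9.86.

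**Figure D3:**
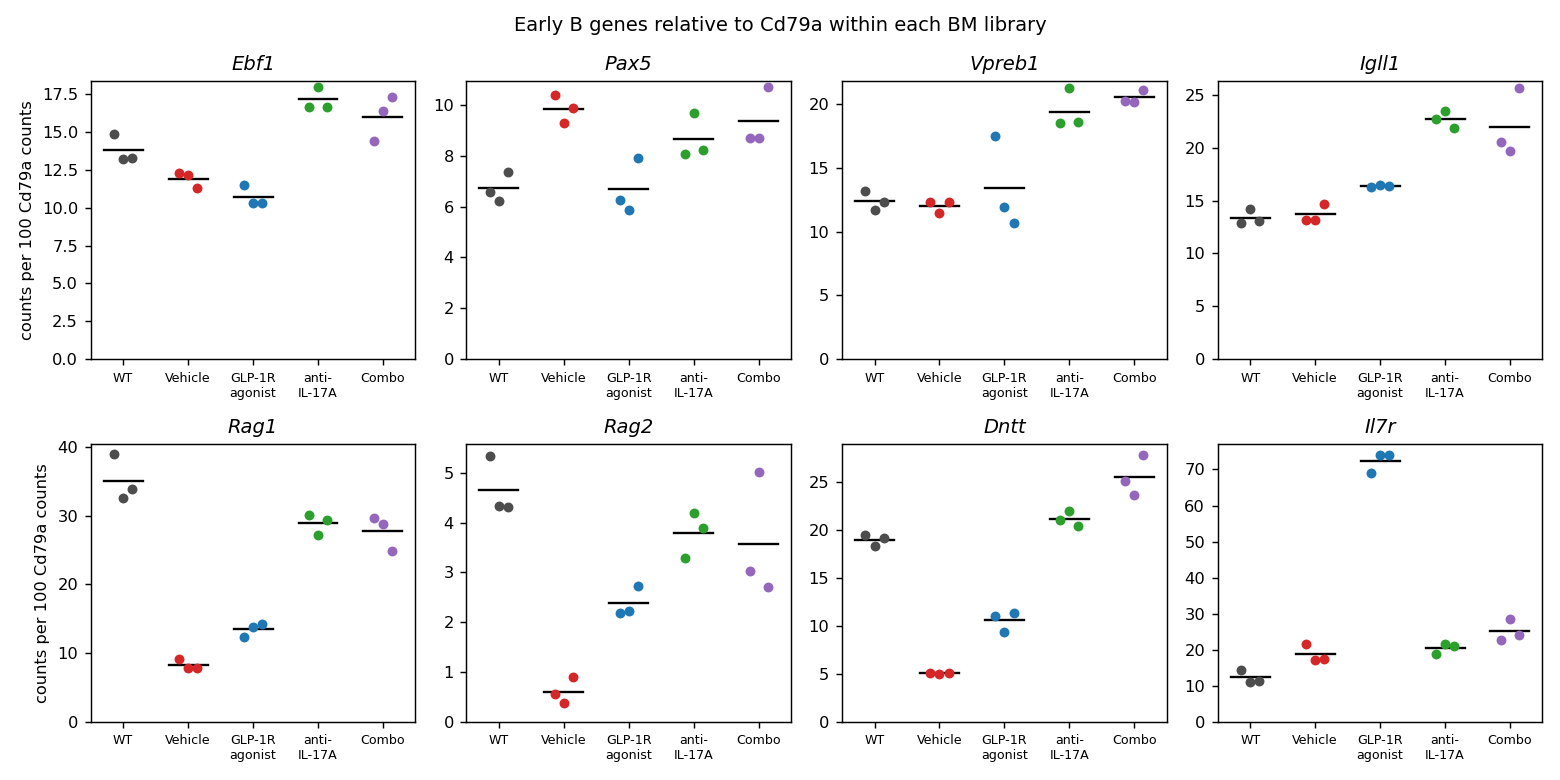
Counts of 8 genes per 100 Cd79a counts of the same BM library (vertical linear axis from 0) in the 5 groups. Points are libraries and bars are group means (n = 3). Rag1, Rag2 and Dntt are lowest in Vehicle, with means of 8.27, 0.605 and 5.04, and Il7r is highest with GLP-1R agonist, with a mean of 72.3.

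Across the 15 BM libraries, which share 5 groups, the log2 levels of Rag1, Rag2 and Dntt had Pearson correlations of 0.954 to 0.987 with each other, and those of Ebf1, Pax5, Vpreb1, Igll1 and Cd79a of 0.953 to 0.992. Il7r had 0.485 to 0.742 with the other 8. The 10 genes most like the mean profile of the 9, among 13187 compared over 15 libraries, were Atp1b1 (0.997), Pou2af1, Chst3, Cpm, Foxp1, Snn, Spib, Blk, Fcrla and Jakmip1 (0.985). Pou2af1, Spib, Blk and Fcrla are known B-lineage genes. Pou2af1 went from 5780 normalized counts in WT to 1696 in Vehicle, 759 in GLP-1R agonist, 2300 in anti-IL-17A and 839 in Combo.

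In ATMs, the 4 genes that could be read did not move as one. The sorted cells are labelled macrophages, and the macrophage genes Adgre1 and Csf1r were lowest in Vehicle, at 1404 ± 373 and 1579 ± 274 normalized counts against 6913 ± 636 and 18150 ± 458 in WT. Cd68, which macrophages share with other phagocytes, was higher in Vehicle (17462 ± 795) than in WT (8681 ± 34.6). Of 14 monocyte and macrophage genes 6 fell and 3 rose in Vehicle vs WT. Ltf, a neutrophil granule gene, was at 68906 ± 1980 in Vehicle and 75902 ± 193 in Combo, and at 462 to 1672 on average in the other groups. Of 15 neutrophil genes 14 rose in Vehicle vs WT. Every ATM contrast given here has Vehicle on one side. Part of the members' RNA in ATMs may belong to other sorted cells, and this was not tested.

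Cd79a in ATMs had 4015, 4086 and 4820 normalized counts in WT, 652, 859 and 718 in Vehicle, 973, 956 and 985 in GLP-1R agonist, 1174, 1008 and 1170 in anti-IL-17A, and 1251, 1371 and 1292 in Combo. WT was far above the other groups, and no pair of neighbouring groups overlapped. Cd79a fell by 2.54 ± 0.12 on the log2 scale in Vehicle vs WT (edgeR adjusted p = 3.08e-11), 1 of the 4 genes where 22.9% of all 17059 genes fell. Genes of mature B and plasma cells summed to 259317 to 275428 in WT and 80197 to 88626 in Vehicle, and 7 of 16 fell and 1 rose. The pan-B genes differed less, with sums of 12525 to 13442 in WT and 7079 to 8102 in Vehicle, and 8 of 13 fell and 1 rose. The part of cells other than B cells in these sums was not tested. The treated groups were 1.31-fold to 1.76-fold above Vehicle in Cd79a, within the fold limit.

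Il7r ran the other way in ATMs. It had 698, 736 and 741 normalized counts in WT and 1619, 1603 and 1381 in Vehicle, and rose by 1.08 ± 0.09 on the log2 scale (edgeR adjusted p = 2.37e-08), 1 of the 4 genes where 12.5% of all genes rose. GLP-1R agonist held 2803, 2882 and 2848, anti-IL-17A 3038, 3233 and 2982, and Combo 2856, 2613 and 3047. Every treated library was above every Vehicle library. The rise over Vehicle passed with anti-IL-17A (1.01 ± 0.08, edgeR adjusted p = 4.21e-08), 1 of the 4 genes where 22.4% of all genes rose. That call is lost without the third Vehicle library (0.93) or the second anti-IL-17A library (0.98). The T-cell genes summed to 21490 to 21886 in WT, 9033 to 9564 in Vehicle and 29794 to 52461 in the treated groups. Of 15 tested, 9 fell in Vehicle vs WT. Against Vehicle, 14 rose with GLP-1R agonist, 12 with anti-IL-17A and 14 in Combo. The part of T cells in the Il7r values of ATMs was not tested.

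Ebf1, which stromal cells and adipocyte precursors also express, had 3505, 3464 and 3825 normalized counts in WT, 1826, 2102 and 1860 in Vehicle, 3953, 4099 and 4346 in GLP-1R agonist, 2276, 1963 and 2357 in anti-IL-17A, and 2512, 2401 and 2272 in Combo. It rose with GLP-1R agonist over Vehicle (1.10 ± 0.09 on the log2 scale, edgeR adjusted p = 2.56e-08), 1 of the 4 genes where 20.8% of all genes rose, and the groups did not overlap. The stromal gene Pdgfra was at 8029 ± 740 in WT, 638 ± 192 in Vehicle, 11266 ± 820 in GLP-1R agonist, 4348 ± 229 in anti-IL-17A and 7235 ± 1206 in Combo, while the endothelial and leukocyte gene Pecam1 was higher in Vehicle (15651 ± 652) than in WT (7755 ± 310). Of 11 stromal and endothelial genes 3 rose and 3 fell in Vehicle vs WT, and 5 rose and 3 fell in GLP-1R agonist vs Vehicle. The part of these cells in Ebf1 was not tested. Pax5 had 29 to 45 raw counts in the WT libraries and 0 to 44 in the other 12, with 0 in 1 Vehicle and 2 Combo libraries. A difference in Pax5 between groups was not detectable at this depth (edgeR adjusted p = 0.602 over the 5 groups). None of the 4 genes passed in Combo vs Vehicle, where 26.4% of all genes changed. Ebf1, Il7r and Cd79a passed the false discovery rate (edgeR adjusted p = 0.00666, 2.36e-07 and 1.96e-05). Each of these 3 was under the fold limit in edgeR and in DESeq2. Over the 5 groups 3 of the 4 genes differed, as did 73.5% of all genes.

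**Figure D4:**
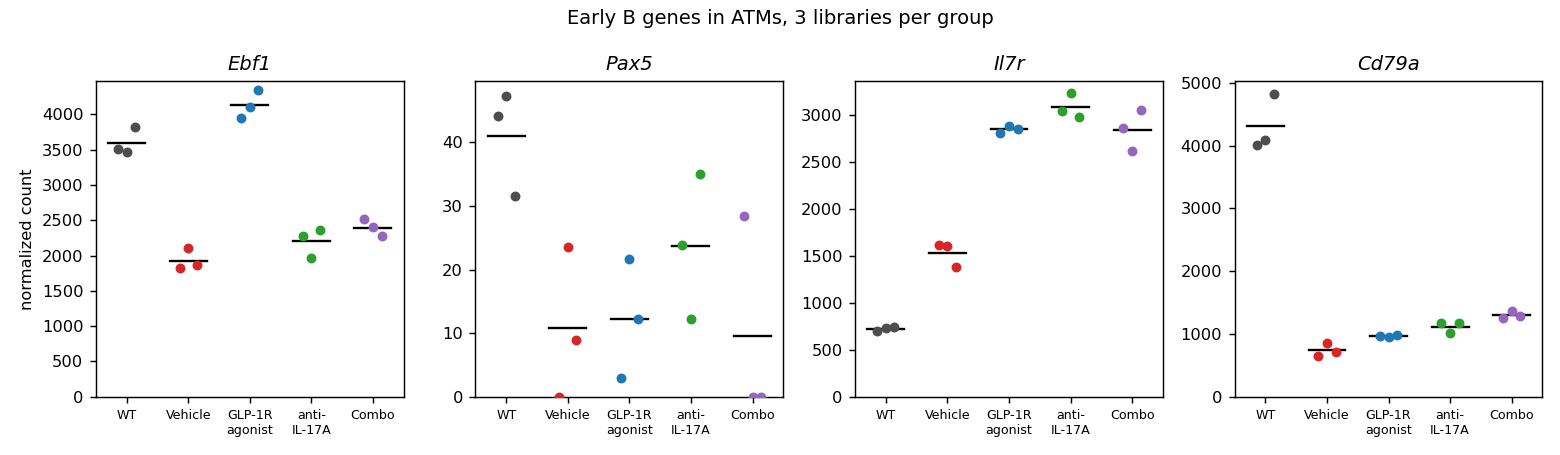
Normalized counts (vertical linear axis from 0) of Ebf1, Pax5, Il7r and Cd79a in the ATM libraries of the 5 groups. Points are libraries and bars are group means (n = 3). Cd79a is highest in WT at a mean of 4307, and Il7r is lowest in WT at a mean of 725.

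The difference of an effect between BM and ATMs was tested in 1 fit of all 30 libraries over the 13076 genes of both tissues. For Vehicle vs WT, Il7r differed by -2.01 ± 0.13 on the log2 scale (BM minus ATMs, edgeR adjusted p = 2.8e-13), with 11.9% of all genes lower in this difference, and Cd79a by 1.00 ± 0.10 (edgeR adjusted p = 7.24e-09), with 16.8% of all genes higher. The Cd79a value lies at the fold limit and fell under it without any 1 of 6 libraries, the lowest value being 0.89 without the first ATM Vehicle library. For Combo vs Vehicle, 3 of the 4 genes differed, where 17.8% of all genes were lower. Cd79a differed by -2.61 ± 0.11, Il7r by -2.26 ± 0.13 and Ebf1 by -1.69 ± 0.11.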

How the data were processed

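RNA of whole BM and of sorted ATMs was measured by paired-end RNA-seq without strand information, 3 libraries for each of 5 groups per tissue, and groups were taken from the sample labels. The deposited values are raw counts per gene, made by the authors with STAR 2.7.2a and featureCounts 2.0.1 on mm10 (GENCODE genes), with a read that overlaps several genes counted for each. Genes with few counts are not in the tables, in which no gene summed to less than 55 counts in BM or 54 in ATMs. All columns were mapped to samples.

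Tests were run with edgeR 4.0.16 under R 4.3.3 (TMM scaling, filterByExpr, which removed 0 genes, and a robust quasi-likelihood test in 1 fit per tissue), with Benjamini-Hochberg adjustment over all genes of the tissue, a false discovery rate of 0.05 and a log2 fold change limit of 1, as in the study. All tests were 2-sided. The standard error comes from the F statistic. Intervals are the estimate with the 95% range from that error. The alternatives were DESeq2 1.42.0, its size factors in edgeR, a stricter filter (10 counts or more in each library) or none, calls without the fold limit, fits of the compared libraries alone, the replicate number as a block, and fits that left out 1 library. The tests were checked on simulated data. Replicates of a group differed by more than counting noise, and the first BM WT library most of all in BM.

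The members and the gene lists were chosen with earlier results of these data known. Apart from the members, the genes named were at most 2 called genes with the largest positive and 2 with the largest negative change in BM Vehicle vs WT per list, the 10 nearest profiles by Pearson correlation (mean of at least 10 counts), and defining markers. Vpreb3, Bach2, Spib and Bank1 in the treated groups and Pdgfra and Cd3e were named after their values were seen. Coordinates and exon lengths are of GENCODE M21 on GRCm38, and start-site windows of RefSeq. Protein sequences were not used.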

Additional observations from a re-analysis of the deposited data

Results flagged for a closer look

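The effect of a comparison differed between BM and ATMs in 5 instances, by the interaction term of the edgeR fit of all 30 libraries. In Vehicle vs WT, Il7r had a log2 difference between tissues (BM minus ATMs) of -2.011 ± 0.127 (edgeR adjusted p = 2.8e-13), being lower than WT in BM and higher in ATMs. Cd79a had 1.0009 ± 0.105 (edgeR adjusted p = 7.24e-09), since it fell in both tissues and by more in ATMs. In Combo vs Vehicle the values were -1.6853 ± 0.113 for Ebf1, -2.2585 ± 0.129 for Il7r and -2.6115 ± 0.109 for Cd79a, each gene being lower than Vehicle in BM and higher than Vehicle in ATMs. ATM libraries of Vehicle and Combo held neutrophil RNA, with Ltf at 68906 ± 1980 and 75902 ± 193 normalized counts against 1548 ± 116 in WT, and its part in these differences was not tested.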

How the results depend on the processing

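Of 1554 member values under the alternatives with the fold limit kept, 1513 stayed on the same side with the same sign, 13 no longer passed, 12 passed anew and 16 turned sign, with no call before or after. Without the fold limit, the members called became 7 in BM anti-IL-17A vs Vehicle, 8 in BM Combo vs Vehicle and 8 in BM Combo vs GLP-1R agonist. They became 5 for the departure of Combo from additive effects, and 3, 2 and 3 in ATMs for GLP-1R agonist, anti-IL-17A and Combo vs Vehicle. The shares of all genes called without that limit were not counted for these comparisons, so the counts show nothing particular to the members. By the false discovery rate alone, 95.1% of all BM genes and 73.5% of all ATM genes differed over the 5 groups. The tissue difference of Vehicle vs WT had 1 called member in place of 2 with DESeq2, its size factors, at least 10 counts, or the replicate block, since Cd79a fell under the limit. BM Combo vs Vehicle had 6 in place of 5 with at least 10 counts or with the compared libraries alone, through Vpreb1. Same-numbered libraries shared only a number (correlations of their deviations from -0.07 to 0.147 in BM and from -0.042 to 0.031 in ATMs, with 8 of 15 and 2 of 15 libraries closest to their own number), and the replicate block left every other count of called members as it was, such as 7 in BM Vehicle vs WT and 3 in BM anti-IL-17A vs Vehicle.

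Leaving out 1 library gave 0 to 1 called members in ATM anti-IL-17A vs Vehicle (0 without Vehicle replicate 3 or anti-IL-17A replicate 2), 0 to 1 in ATM Combo vs Vehicle (1 without Combo replicate 1, for Pax5) and 1 to 2 in the tissue difference of Vehicle vs WT. In the tissue difference of Combo vs Vehicle, Pax5 passed without ATM Vehicle replicate 2, Combo replicate 2 or Combo replicate 3. The log2 values that turned sign ranged, over these fits, from -0.1007 to 0.5612 for Rag2 in BM GLP-1R agonist vs Vehicle, from -0.06328 to 0.06872 for Rag1 in BM Combo vs Vehicle, from -0.004619 to 0.06685 for Il7r in BM GLP-1R agonist vs anti-IL-17A, from -0.107 to 0.2659 for the additive departure of Vpreb1 (-0.002231 with at least 10 counts), from -0.4907 to 1.432 for Pax5 in ATM GLP-1R agonist vs Vehicle, from -6.431 to 1.092 in ATM Combo vs Vehicle, and from -3.006 to 4.627 in the tissue difference of Combo vs Vehicle. The values of -6.431 and 4.627 come from fits in which both remaining ATM Combo libraries held 0 counts of Pax5, and they give no size of a change. The cause of the other shifts was not tested. Pax5 in ATMs, at 0 to 47.3 normalized counts, was limited by depth, and Rag2 in BM Vehicle rested on 16 to 35 counts a library.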
